A study of Homo sapiens with 6 samples.

Results

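The miR-200 family was measured by 5 probes, for hsa-miR-200b-3p, hsa-miR-200a-3p, hsa-miR-429, hsa-miR-200c-3p and hsa-miR-141-3p (the prefix for human is dropped below), out of 798 human miRNA probes on the nCounter human v3 miRNA panel. The members were taken by the probe names in the raw count files. The RNA came from A549, an established human lung adenocarcinoma cell line of alveolar epithelial origin. In 3 libraries (siAPE1) the cells had received an siRNA that targets APE1, an abasic site endonuclease that works in base excision repair, and in 3 (siSCR) a scramble control siRNA. Both groups received 100 pmol of siRNA in the same transfection reagent and were collected after 72 h, and 100 ng of total RNA was used. Silencing was transient and 1 siRNA sequence was used in each group, and as APEX1 mRNA is not among the probes, the knockdown itself could not be checked in these libraries. The labels number the replicates but do not say whether they are separate cultures, and the p-values below measure only the spread between these samples.

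The miR-200 family is best known as a guard of the epithelial state. Its members bind the 3′ untranslated regions of ZEB1 and ZEB2 mRNAs, whose products repress E-cadherin, and the ZEB proteins in turn repress transcription of the miR-200 genes. Loss of these miRNAs is a textbook feature of the epithelial to mesenchymal transition, in which epithelial cells lose their junctions and become motile. As in every miRNA, the seed near the 5′ end does most of the target recognition, so members with the same seed share most of their targets.

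The family comes from 2 genomic clusters, and its seeds cut across them. The mature sequences are shown because a single seed base sets apart 2 target groups, and they are given 5′ to 3′ with the seed (bases 2 to 8) in capitals, from RefSeq (GRCh38.p14), which held all 5 members.
miR-200b-3p: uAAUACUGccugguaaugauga
miR-200c-3p: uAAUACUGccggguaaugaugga
miR-429: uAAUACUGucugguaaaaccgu
miR-200a-3p: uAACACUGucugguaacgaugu
miR-141-3p: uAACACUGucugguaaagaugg
The first 3 share the seed AAUACUG and the last 2 the seed AACACUG, which differ by U4C, counted from the 5′ end of miR-200b-3p. Within a seed group, miR-200b-3p and miR-200c-3p differ by U11G and A22G over 22 compared positions, and miR-200a-3p and miR-141-3p by C17A and U22G. How well the probes tell such close relatives apart was not tested. No other of the 730 panel miRNAs with a RefSeq sequence (of 827 names) carries either seed.

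The genes of miR-200b-3p, miR-200a-3p and miR-429 lie in that order on chromosome 1. Their mature sequences span 1:1167160-1167181, 1:1167916-1167937 and 1:1169055-1169076, all on the plus strand and within the long noncoding RNA gene MIR200BHG (1:1162877-1170338). Those of miR-200c-3p and miR-141-3p lie on chromosome 12, at 12:6963742-6963764 and 12:6964155-6964176, also on the plus strand and within the long noncoding RNA gene MIR200CHG (12:6963245-6964447). The table used gives no exons of these host genes.

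The libraries held 312152 to 331524 counts in siAPE1 and 370087 to 488407 in siSCR, so every siAPE1 library had the lower total. These totals include the miRNAs that are compared. Each library carries 8 negative controls, probes with no target in the sample, and a miRNA was called above background where its raw count exceeded their mean plus 2 SD. That limit lay between 63.3 and 75.8 counts in siAPE1 and between 53.1 and 70.6 in siSCR. In all 6 libraries 1 control, NEG_C, was the highest, at 57 to 83 counts, while the other 7 lay between 9 and 37 and set a limit of 40.4 to 42.7 counts in siAPE1 and 27.7 to 38.3 in siSCR. Which limit is nearer to the background of the family's own probes was not tested. For the comparison between groups, counts were divided by a factor from the positive controls and 5 housekeeping mRNAs ("scaled counts"). The factors were 0.958, 0.955 and 0.817 in siAPE1 and 1.13, 1.34 and 0.884 in siSCR. The factor of siSCR replicate 3 lay under those of siAPE1 replicates 1 and 2, although its total count was higher. The mean of the negative controls, scaled in this way, averaged 31.9 in siAPE1 and 24.4 in siSCR.

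The family was present at low level at most. miR-200b-3p, from the first gene of the chromosome 1 cluster, had 47, 58 and 59 raw counts in the siAPE1 libraries (replicates 1 to 3), against 81, 96 and 72 in the siSCR libraries. Every siAPE1 count lay under every siSCR count. Every siAPE1 library also had the lower total count, though not always the lower scaling factor, and the scaled groups overlapped (below). None of the siAPE1 counts exceeded the limit of its own library, and all 3 siSCR counts did. Relative to the mean of the negative controls the counts were 1.50 to 2.15 times in siAPE1 and 2.76 to 3.31 times in siSCR.

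miR-200c-3p, which shares the seed of miR-200b-3p but is made from chromosome 12, showed nearly the same picture. It had 44, 39 and 51 raw counts in siAPE1, against 75, 86 and 66 in siSCR. The raw counts of the groups did not overlap, again with the lower total count in every siAPE1 library. The share of all probes whose raw counts separated in this way was not computed. No siAPE1 library was above its limit, while siSCR replicates 1 and 2 were, and siSCR replicate 3 missed it at 66 counts against 68.0. The counting error alone was wide, with exact 95% Poisson intervals of 27.7 to 53.3 for the lowest siAPE1 count and 51.0 to 84.0 for the lowest siSCR count. Such intervals cover counting error only.

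miR-200a-3p, made from the same host transcript as miR-200b-3p but with the other seed, had 65, 53 and 56 raw counts in siAPE1, against 69, 78 and 48 in siSCR. Here the groups overlapped, since the lowest count of all 6 was that of siSCR replicate 3. No siAPE1 library was above the limit, and siSCR replicates 1 and 2 were.

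The last 2 members were at background. miR-141-3p, the chromosome 12 partner of miR-200c-3p, had 31, 30 and 33 raw counts in siAPE1, against 30, 33 and 40 in siSCR. miR-429, the most distal gene of the chromosome 1 cluster, had 20, 28 and 17 in siAPE1, against 18, 24 and 26 in siSCR. Neither exceeded the limit in any library, and miR-429 lay under the mean of the negative controls in all 6. Between 2 and 6 of the 8 negative controls were lower than miR-429, and between 5 and 7 were lower than miR-141-3p. Probes have their own background, so these values do not show that either miRNA was absent, only that it was not detectable with these controls.

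**Figure D1:**
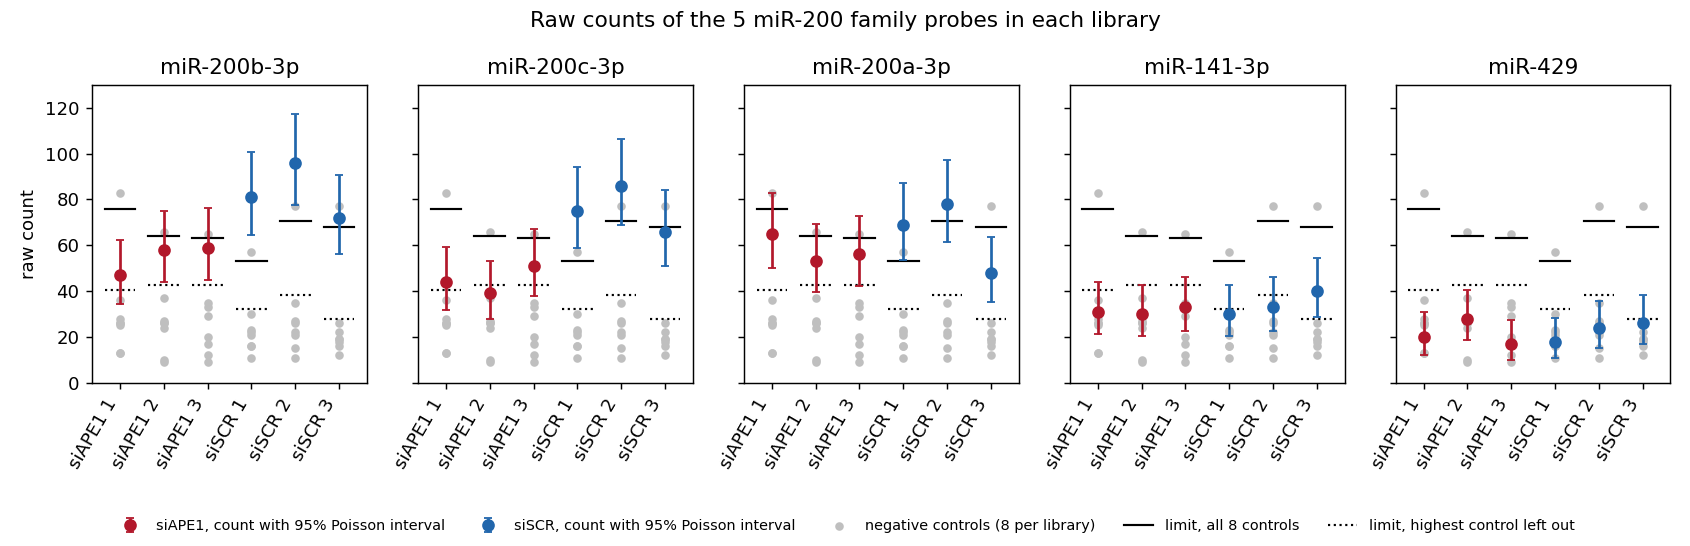
Raw count of each family member (vertical axis) in each library (horizontal axis), with its 95% Poisson interval, the 8 negative controls and both background limits. miR-200b-3p and miR-200c-3p lie lower in all 3 siAPE1 libraries than in any of the siSCR libraries, which all had higher total counts. miR-141-3p and miR-429 lie among the negative controls in both groups.

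Counted over whole groups, 0 of the 5 members were above the limit in all 3 siAPE1 libraries and 1, miR-200b-3p, in all 3 siSCR libraries. This count rests on the control NEG_C. With the other 7 controls it was 2 members in siAPE1 (miR-200b-3p and miR-200a-3p) and 3 in siSCR (these and miR-200c-3p). Without siSCR replicate 3 it was 3 in siSCR. In siAPE1 the mean scaled counts of miR-200b-3p, miR-200c-3p and miR-200a-3p exceeded those of 80.8%, 77.8% and 82.0% of the panel's miRNA probes, against 58.0% for miR-141-3p and 23.1% for miR-429. In siSCR these shares were 82.1%, 81.5%, 80.2%, 63.9% and 32.2% in the same order. miR-200a-3p thus had the highest mean of the family in siAPE1 and miR-200b-3p in siSCR, by less than the spread between libraries for the nearest member in siAPE1. The levels of different probes are set side by side here only as ranks within the panel, because their capture efficiency is not known.

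After subtraction of the library's negative-control mean and scaling, miR-200b-3p had 16.4, 31.3 and 38.5 counts in siAPE1, against 50.1, 49.8 and 51.9 in siSCR. All siAPE1 values were lower, and they were far more spread than those in siSCR. Before subtraction the scaled groups of miR-200b-3p overlapped. The scaled negative-control mean that was subtracted averaged 31.9 in siAPE1 and 24.4 in siSCR, so among scaled counts its separation appeared only after subtraction. The share of all probes that separated on this measure was not computed. The means were 28.8 ± 11.3 in siAPE1 and 50.6 ± 1.16 in siSCR (SD, n = 3 each; exact two-sided permutation test p = 0.1, the smallest that 3 libraries against 3 can give). For miR-200c-3p the values were 13.3, 11.4 and 28.7 in siAPE1, against 44.7, 42.3 and 45.1 in siSCR. Again no siAPE1 value reached the siSCR values, and siAPE1 replicate 3 was the highest of its group for both miRNAs. The means were 17.8 ± 9.51 in siAPE1 and 44.1 ± 1.52 in siSCR (n = 3 each; exact permutation p = 0.1). Since no siAPE1 count of either miRNA was above the limit, no ratio of the means is given. miR-200a-3p averaged 32.1 ± 5.20 in siAPE1 and 33.5 ± 7.74 in siSCR (n = 3 each), which differed by less than the spread in either group (exact permutation p = 0.7). The permutation test was run only for these 3 members, which exceeded the limit in any library. All those libraries were siSCR, so the selection itself favoured lower siAPE1 values, and these p-values are no support for a difference. miR-141-3p averaged 2.81 ± 3.57 in siAPE1 and 7.79 ± 6.93 in siSCR, and miR-429 averaged below 0 in both.

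**Figure D2:**
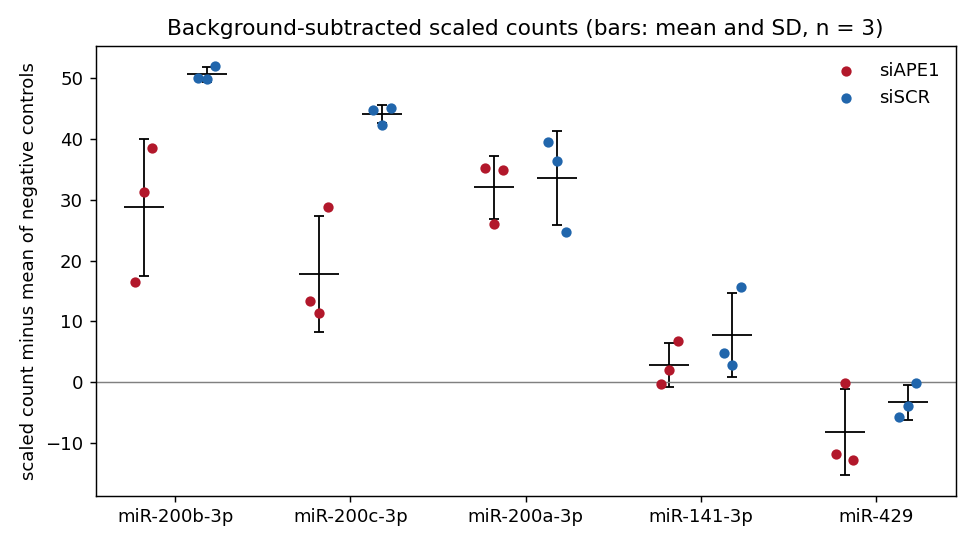
Scaled counts after subtraction of the negative-control mean (vertical axis) for each member, with 1 point per library and bars for the mean and SD. The siAPE1 libraries reach at most 38.5 for miR-200b-3p and 28.7 for miR-200c-3p, under all siSCR libraries, which lie within 49.8 to 51.9 and 42.3 to 45.1, and the groups overlap for miR-200a-3p. These siSCR ranges are narrower than counting error. The scaled groups of miR-200b-3p overlapped before subtraction.

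Across the panel, groups were compared with edgeR's quasi-likelihood test on unscaled counts, with log scaling factors entering as offsets. The threshold was a Benjamini-Hochberg adjusted p of 0.1, the q-value limit the study used. The fold-change cutoff that the study set beside it was not applied, so calls here are not calls by the study's full rule. Only miRNAs above the limit in at least 3 of the 6 libraries were tested in the first fit, 152 in all. miR-200b-3p was the only member among them, and it passed through its siSCR libraries alone. Its scaled counts were 49.1, 60.7 and 72.2 in siAPE1, against 71.8, 71.6 and 81.5 in siSCR. siAPE1 replicate 3 lay within the siSCR range, so the scaled groups overlapped. The means were 60.7 ± 11.5 in siAPE1 and 74.9 ± 5.65 in siSCR, with a log2 fold change of −0.31 ± 0.17 (SE; edgeR adjusted p = 0.118), which did not pass. Without siAPE1 replicate 3 it did, at −0.44 (edgeR adjusted p = 0.0615). Without any other single library it did not (edgeR adjusted p from 0.162 to 0.547). Of the 152 miRNAs, 50.7% passed as lower and 9.87% as higher in siAPE1, 52.6% had siAPE1 values entirely below siSCR, and the median log2 fold change was −0.34, so that the value of miR-200b-3p lay near the median of the tested miRNAs. These shares depend on the filter, which also admits other miRNAs above the limit in siSCR alone. The probes left out by it had a median of 0.27 in a fit without the filter.

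The other 4 members were taken from a second fit over all 798 probes without a filter, where 9.27% passed as lower and 9.77% as higher. Of the 5 members, 1 passed in this fit, miR-200c-3p, as lower in siAPE1. Its scaled counts were 45.9, 40.8 and 62.4 in siAPE1, against 66.5, 64.1 and 74.7 in siSCR, and the groups did not overlap, as for 11.0% of all probes in this direction. It fell to 49.7 ± 11.3 in siAPE1, against 68.4 ± 5.55 in siSCR (SD, n = 3 each), a log2 fold change of −0.46 ± 0.19 (SE; edgeR adjusted p = 0.0867 over all probes). Since none of its siAPE1 counts was above the limit, which came to a mean of 74.5 scaled counts there, no fold above background can be given. In the same fit miR-200b-3p did not pass (adjusted p = 0.280 in edgeR).

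The call of miR-200c-3p was weak. Leaving out any single library other than siAPE1 replicate 3 ended it: the edgeR adjusted p was 0.292 without siAPE1 replicate 1, 0.285 without siAPE1 replicate 2, and 0.133, 0.145 and 0.137 without siSCR replicates 1, 2 and 3. With DESeq2's test in place of edgeR's it did not pass either (log2 fold change −0.46, adjusted p = 0.312).

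The remaining 3 members had log2 fold changes of 0.14 ± 0.19 for miR-200a-3p, 0.15 ± 0.25 for miR-141-3p and 0.22 ± 0.29 for miR-429 (SE; edgeR adjusted p = 0.650, 0.710 and 0.650). These values did not pass, and all lay near the median of all 798 probes in this fit, which was 0.22. The median of the 5 members was 0.14. The 8 negative controls, scaled in the same way, had a median log2 difference of 0.38, with 6 of 8 higher in siAPE1, so a probe at background had a positive value with this scaling. The part of this in the members' values was not tested. Against all probes, miR-200c-3p lay above 8.52% and miR-200b-3p above 11.8% of the log2 fold changes, and miR-200a-3p, miR-141-3p and miR-429 above 39.1%, 41.2% and 49.7%.

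**Figure D3:**
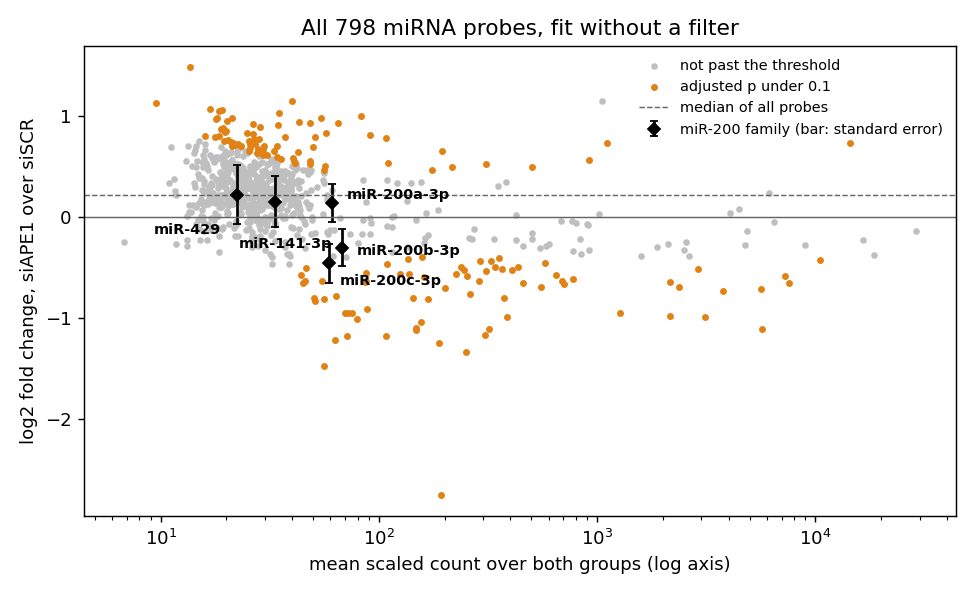
Log2 fold change of siAPE1 over siSCR (vertical axis) against the mean scaled count (horizontal log axis) for all 798 miRNA probes in the fit without a filter. Black diamonds mark the 5 members with their standard error, and orange points passed an adjusted p of 0.1. miR-200b-3p and miR-200c-3p lie below 0, and the other 3 lie near the dashed median of all probes at 0.22.

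Because members share a library, the ratio of their raw counts does not depend on the scaling. Of 10 pairs, 3 had ratios that did not overlap between the groups, a share near the 28.9% of all pairs of miRNA probes on the panel whose ratios did not overlap, so the count itself says nothing particular about the family. This comparison was chosen after the counts were seen. The ratio of miR-200a-3p to miR-200c-3p was 1.48, 1.36 and 1.10 in siAPE1, against 0.920, 0.907 and 0.727 in siSCR. miR-200a-3p thus had the higher count of the 2 in each siAPE1 library and the lower count in each siSCR library. The ratio of miR-200b-3p to miR-200a-3p, which come from 1 host gene, was 0.723, 1.09 and 1.05 in siAPE1, against 1.17, 1.23 and 1.50 in siSCR. The ratio of miR-200c-3p to miR-141-3p, the pair from chromosome 12, was 1.42, 1.30 and 1.55 in siAPE1, against 2.50, 2.61 and 1.65 in siSCR. Each of the 3 had an exact permutation p of 0.1, or 0.333 after Benjamini-Hochberg adjustment over the 10 pairs. The ratio of miR-200b-3p to miR-200c-3p, the pair with 1 seed and different host genes, was 1.07, 1.49 and 1.16 in siAPE1, against 1.08, 1.12 and 1.09 in siSCR, and overlapped. miR-141-3p was at background, where a ratio is compressed.

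**Figure D4:**
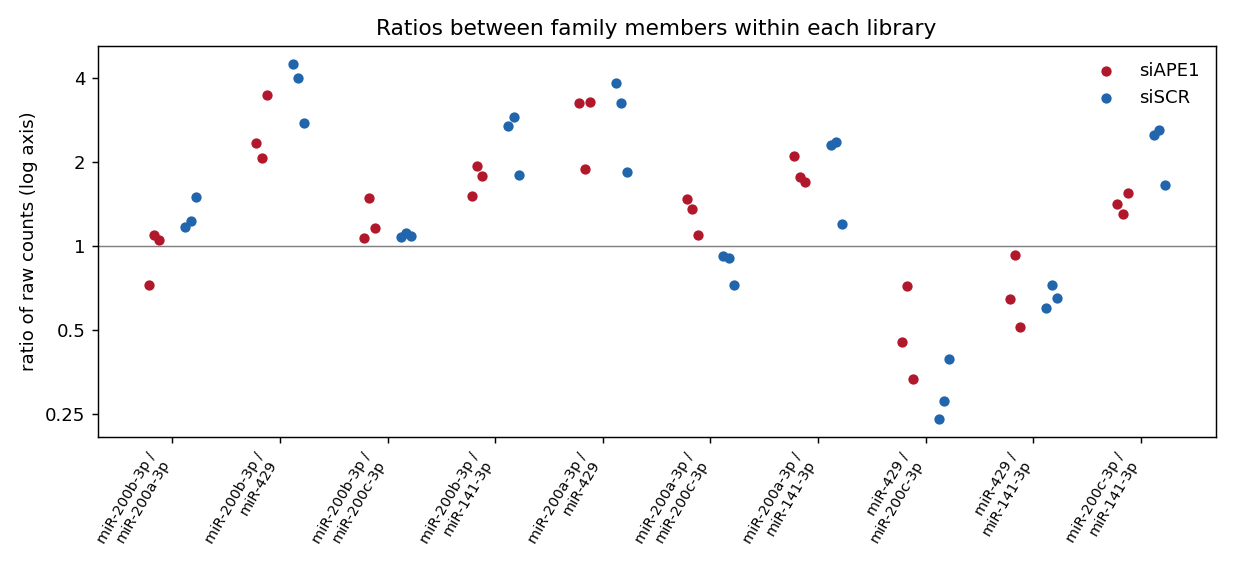
Ratio of raw counts within each library (vertical log axis) for the 10 pairs of members, with siAPE1 left of siSCR and 1 point per library. The groups separate for miR-200b-3p over miR-200a-3p, miR-200a-3p over miR-200c-3p and miR-200c-3p over miR-141-3p, and overlap in the other 7 pairs.

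The size of the group difference depended on how the libraries were scaled. For miR-200b-3p, scaling by TMM on the tested miRNAs, which centres the miRNAs on themselves, gave a log2 fold change of 0.048 (edgeR adjusted p = 0.775), and DESeq2's size factors gave 0.037. Over all 798 probes, most of them at background, TMM gave −0.41 instead (edgeR adjusted p = 0.0499) and DESeq2's size factors −0.46 (edgeR adjusted p = 0.0244). Among the tested miRNAs, scaling by the positive controls alone gave −0.73 (edgeR adjusted p = 0.000256), and subtraction of background before the test gave −0.90 (limma adjusted p = 0.0175). Over all probes the background-subtracted value of miR-200b-3p did not pass (limma adjusted p = 0.284). For miR-200c-3p all 16 alternatives kept a negative sign, between −1.43 and −0.11, and 6 of them passed. With the same TMM factors of the tested miRNAs, chosen after seeing the data, it had −0.11 (edgeR adjusted p = 0.585), and with the total miRNA count −0.25 (adjusted p = 0.235). With those TMM factors miR-200a-3p, miR-141-3p and miR-429 passed as higher, at 0.49, 0.51 and 0.58 (edgeR adjusted p = 0.0174, 0.0606 and 0.0662), when 511 of all 798 probes did, with a median of 0.57.

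**Figure D5:**
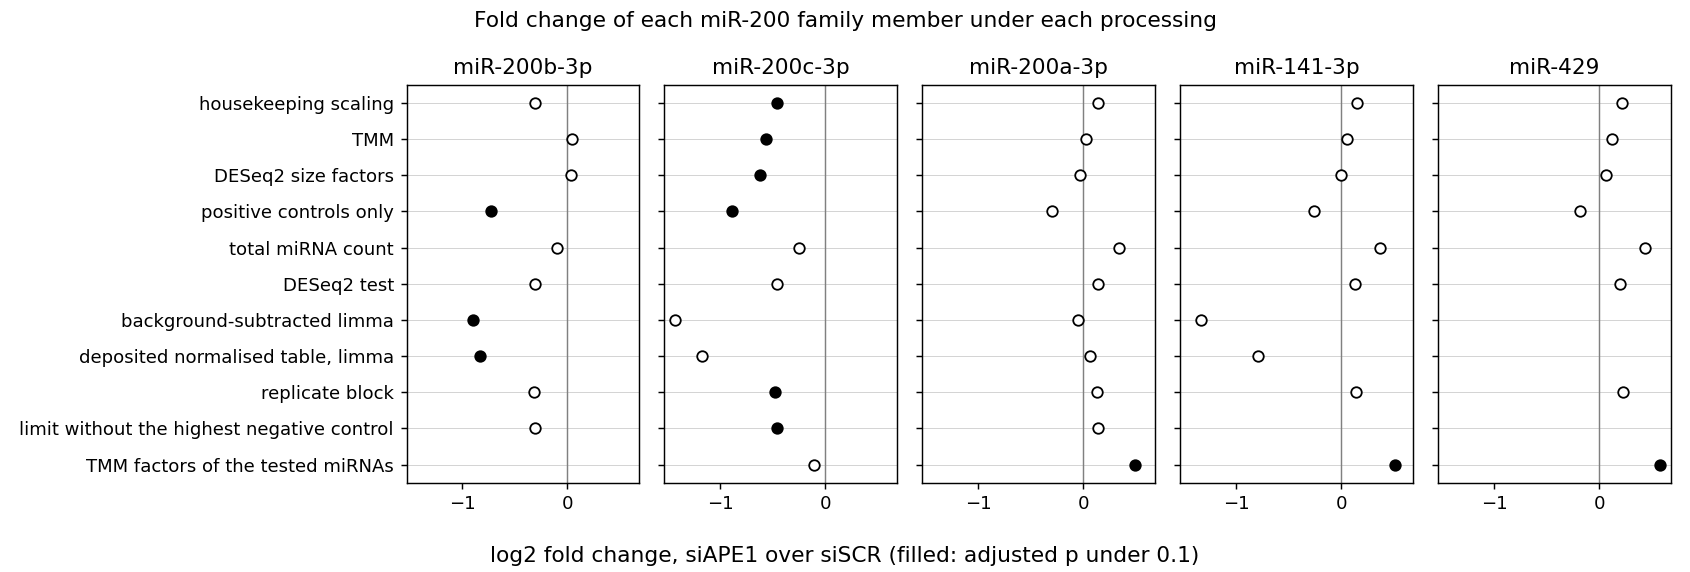
Log2 fold change of siAPE1 over siSCR (horizontal axis) for each member under each scaling, background treatment or test (rows). Filled points passed an adjusted p of 0.1, and open points did not. A point is missing where the member failed the background limit of that row (miR-141-3p and miR-429, highest control left out). It is also missing where the member was at the floor in all libraries (miR-429, both limma rows). The last row is not drawn for miR-200b-3p, which had 0.047 there in the fit over all probes. The points of miR-200b-3p come from the fit among the tested miRNAs and those of the others from all probes. miR-200c-3p is negative in every row, while the other 4 members change sign. The drawn positive values of miR-200b-3p are in the TMM and DESeq2 size factor rows, where the fits over all probes gave −0.41 and −0.46.

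Other miRNAs enriched in epithelia gave a mixed picture of detection. The list held 6 miRNAs, of which miR-205-5p, miR-203a-3p and miR-375, markers of squamous, keratinocyte and neuroendocrine or glandular cells, were under the limit in all libraries. The other 3, the miR-183 cluster, were tested, and 3 of 3 passed as lower in siAPE1 (50.7% of all tested miRNAs did), with a median log2 fold change of −0.82 against −0.34 over all tested miRNAs. miR-182-5p, the largest of these differences, had scaled counts of 87.7, 93.2 and 125 in siAPE1, against 189, 210 and 230 in siSCR (−1.04 ± 0.18, edgeR adjusted p = 2.39e-07). Its groups did not overlap, and neither did those of miR-183-5p (−0.82 ± 0.18) and miR-96-5p (−0.80 ± 0.18). With TMM 3 of 3 also passed as lower, at −0.69 to −0.44, when 46 of the 152 tested miRNAs passed as lower and 47 as higher.

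Other miRNAs target ZEB mRNAs, as the miR-200 family does, or SNAIL mRNAs. Of 14 such miRNAs, among them miR-205-5p and miR-203a-3p, 8 were tested, of which 2 passed as lower, 0 as higher and 6 did not pass (median −0.24), against 50.7% lower and 9.87% higher over all tested miRNAs. miR-34c-5p, a p53-responsive miRNA, had 51.6 ± 6.23 scaled counts in siAPE1 and 99.7 ± 2.17 in siSCR (SD, n = 3 each; −0.95 ± 0.18, edgeR adjusted p = 7.24e-07). It too passed the filter through its siSCR libraries alone, with no siAPE1 count above the limit, so the size of its difference is not measured against background. miR-30b-5p had 201 ± 19.8 in siAPE1 and 292 ± 24.2 in siSCR (n = 3 each; −0.53 ± 0.17, edgeR adjusted p = 0.0039). The values of miR-34a-5p (−0.27 ± 0.18) and miR-192-5p (−0.26 ± 0.18), also p53-responsive, did not pass. With TMM 1 of the 8 passed as lower (miR-34c-5p) and 2 as higher, while miR-30b-5p did not pass (−0.17, edgeR adjusted p = 0.202).

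Of 8 miRNAs described as promoting the mesenchymal transition, 6 were tested, of which 2 passed as lower, 0 as higher and 4 did not pass (median −0.28), against the same 50.7% and 9.87% over all tested miRNAs. miR-107, which targets DICER1 mRNA, had 548.6 ± 51.3 scaled counts in siAPE1 and 868 ± 63.8 in siSCR (n = 3 each; −0.66 ± 0.17, edgeR adjusted p = 0.000305). miR-9-5p, which targets E-cadherin mRNA, had 305 ± 64.2 in siAPE1 and 406 ± 19.7 in siSCR (−0.41 ± 0.17, edgeR adjusted p = 0.0283). miR-221-3p and miR-10b-5p had −0.30 ± 0.18 and −0.26 ± 0.17 and did not pass. With TMM 1 passed as lower (miR-107, −0.30) and 1 as higher, while miR-9-5p did not pass (−0.07, edgeR adjusted p = 0.595). Neither list therefore held a call of a higher miRNA with the housekeeping scaling, and both medians lay above that of all tested miRNAs.

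Markers of other cell types were mostly at background. Of 7 mesenchymal and endothelial miRNAs, 5 were under the limit in all libraries, among them the defining smooth muscle and fibroblast miRNAs miR-143-3p, miR-145-5p and miR-214-3p. The shared probe for miR-199a-3p and miR-199b-3p was above it in 2 libraries, and the endothelial miR-126-3p was above it in all 6, at 422 ± 36.9 scaled counts in siAPE1 and 683 ± 146 in siSCR (n = 3 each; −0.69 ± 0.17, edgeR adjusted p = 0.000189), and the sum over the list was 651 to 657 in siAPE1 and 775 to 1051 in siSCR. Of 6 blood miRNAs 0 passed the filter and 5 were under the limit in all libraries, and their sum was 151 to 210 scaled counts in siAPE1 and 145 to 154 in siSCR. The summed scaled counts of the 5 miR-200 members, background included, were 216 to 264 in siAPE1 and 236 to 285 in siSCR, and overlapped.

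Over the 6 libraries, the scaled counts of miR-200b-3p were most like those of miR-20a-5p+miR-20b-5p (1 shared probe, Pearson r = 0.988 on the log2 scale), then miR-99a-5p (0.980), miR-98-5p (0.979), miR-34a-5p (0.973) and miR-30d-5p (0.970). These miRNAs were far more abundant, between 240 and 1903 mean scaled counts in siAPE1 and between 277 and 2298 in siSCR. Their log2 fold changes ran from −0.31 to −0.21, and none passed the threshold. The libraries share 1 scaling, and the median r of miR-200b-3p with the 151 other tested miRNAs was 0.789, so these values describe the 6 libraries only.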

How the data were processed

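Each sample's deposited file held raw counts per probe, before any correction, as the values themselves show. The authors also deposited a normalised table, whose values are a score: each of the 126 miRNA probes with a value of 30 or more throughout followed 1 line against the raw count, shared by all 6 libraries, and low counts were listed at 0. It was used only as an alternative, because that line holds no scaling between libraries. The study's methods name NanoStringDiff for normalisation, which was not used here. No aligner or genome build applies.

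Counts were scaled by the slope of the 6 positive controls and the median ratio of the 5 housekeeping mRNAs, with a geometric mean of 1. They were tested with edgeR 4.0.16 in R 4.3.3 (robust quasi-likelihood, two-sided), with limma 3.58.1 and DESeq2 1.42.0 as alternatives, and the code was tested on simulated data. Exact permutation tests used SciPy 1.17.1. Background-subtracted counts were set to at least 1 before log2 in limma, and 1 was added to values of the deposited table, after division by the scaling factor. Alternatives were other scalings, filters, background limits and tests, single libraries left out, and a replicate block.

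Named were all 5 members, up to 4 tested miRNAs of each list with the smallest p, and the 5 miRNAs most like miR-200b-3p. The members and lists were chosen with earlier results of these data known.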

Additional observations from a re-analysis of the deposited data

Results flagged for a closer look

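Of the 5 spike-in probes, which match non-human miRNAs and whose targets the labels do not list as added, 2 gave counts above background. The probe osa-miR414 exceeded the background limit in 4 of 6 libraries, with 66 to 116 raw counts in siAPE1 (3 of 3 libraries above the limit) and 53 to 86 in siSCR (1 of 3). The probe osa-miR442 exceeded it in 1, a siSCR library, with 50 to 56 counts in siAPE1 and 65 to 70 in siSCR. The counts of miR-200b-3p, miR-200c-3p and miR-200a-3p, at 39 to 96, overlapped with these.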

How the results depend on the processing

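The number of members above background in all 3 libraries was 0 in siAPE1 and 1 in siSCR. It became 2 and 3 when the highest negative control was left out of the limit, 3 and 3 for values above 0 in the deposited table, and 0 in siSCR for a limit at the highest control or at the mean plus 3 SD. Leaving out 1 library gave 0 in siAPE1 and 1 to 3 in siSCR. For miR-200b-3p (log2 fold change −0.31), TMM gave 0.048, DESeq2's size factors 0.037, positive controls only −0.73, background subtraction in limma −0.90 and the deposited table −0.84, the last 3 past the threshold, and leaving out 1 library gave −0.44 to −0.17. These were fitted among the tested miRNAs, and the values of miR-200c-3p below over all probes. Over all probes, background subtraction and the deposited table did not put miR-200b-3p past the threshold (limma adjusted p = 0.284 and 0.220). There TMM and DESeq2's size factors gave it −0.41 and −0.46, both past the threshold (edgeR adjusted p = 0.0499 and 0.0244). For miR-200c-3p (−0.46, passed), the call was lost with the total miRNA count (−0.25), DESeq2's test (−0.46), background subtraction (−1.43), the deposited table (−1.17) and TMM factors of the tested miRNAs (−0.11), and leaving out 1 library gave −0.65 to −0.34. With positive controls only, miR-200a-3p, miR-141-3p and miR-429 turned to −0.29, −0.26 and −0.19. miR-200a-3p also turned with DESeq2's size factors (−0.029) and background subtraction (−0.050), and miR-141-3p ran from −0.026 (without siSCR replicate 2) to 0.43 with 1 library left out. TMM factors of the tested miRNAs put these 3 past the threshold, at 0.49, 0.51 and 0.58. The counts of miRNAs higher and lower, 15 and 77, became 47 and 46 with TMM, 47 and 50 with DESeq2's size factors, 6 and 128 with positive controls only. Those higher numbered 32 with the total miRNA count, 78 without a filter, 40 without the highest negative control, and 9 (without siSCR replicate 1) to 20 with 1 library left out.

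The replicate block left miR-200b-3p at −0.31 (edgeR adjusted p = 0.117), kept the call of miR-200c-3p (adjusted p = 0.0688) and gave 20 higher and 96 lower miRNAs. Same-numbered libraries did not deviate together (r = −0.588, −0.0135 and −0.491 over 152 miRNAs). With 3 libraries per group and 1 scaling factor per library, these values cannot tell whether the numbers mark paired cultures. Background-subtracted ratios separated the groups in 3 of the 3 pairs of miR-200b-3p, miR-200a-3p and miR-200c-3p, against 2 for raw counts. The share of all probe pairs that separate after subtraction was not computed. In siAPE1 these ratios divide values near background, so this count says nothing particular about the family. No member remained under the stricter filter (above the limit in all 6 libraries). For miR-141-3p, background subtraction and the deposited table turned the value to −1.34 and −0.79 (limma adjusted p = 0.747 and 1), with at least 1 library at the floor. miR-429 was at the floor in all 6 libraries and is not given for these 2 settings. Counts this close to background and 3 libraries per group limit the precision for every member.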
